A study of Mus musculus with 17 samples.

Results

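The genes described here are 44 genes that mark the endothelium, the cell layer that lines blood and lymph vessels, measured in RNA from whole mouse kidneys at E12.5. They were taken from a list of gene symbols, each matched through its Ensembl ID to a table of 24432 gene IDs. Each of the 44 had 1 row and passed the filter of an FPKM (fragments per kilobase of transcript, scaled to library size) of at least 1 in at least 3 libraries. The list held 29 pan-endothelial genes, 7 arterial genes, 6 venous or lymphatic genes and 2 genes of tip cells, the migrating cells at the front of a vessel sprout. The study compared wild-type kidneys with kidneys in which beta-catenin, the effector of canonical Wnt signalling, was stabilised in 1 lineage of the kidney. The stabilised allele (labelled Ctnnb1-delta3 c/+) was combined with Foxd1-Cre, which acts in the stroma, in 5 libraries, or with Six2-Cre, which acts in nephron progenitors, in 3 libraries. The other 9 libraries were from wild-type kidneys. All 17 were of the same age, the strain was given as mixed, and neither Cre driver is named for endothelial cells. The labels number the libraries of a group as replicates without saying whether each came from its own embryo, so p-values measure the spread between these libraries, which may in part be technical.

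Kidney vessels form from endothelial precursors while the first nephrons are laid down, and they grow by sprouting under vascular endothelial growth factor (VEGF), which binds the receptors made by Kdr and Flt1. The angiopoietin made by Angpt1, acting on the receptor made by Tek, and contact with mural cells (pericytes and smooth muscle) stabilise the new vessels. Notch signalling through Dll4 and Notch4 and the ephrin made by Efnb2 mark arteries, whereas the ephrin receptor made by Ephb4 and the nuclear receptor made by Nr2f2 mark veins. Transcription factors of the ETS and SOX families hold the endothelial program in place. Several of these genes are not private to vessels. Nr2f2 is also made by stroma, Efnb2 by developing epithelia, and Nrp1, Nrp2 and Ets1 by other mesenchymal or epithelial cells.

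The libraries formed 2 sets that the labels do not name. The Foxd1-Cre libraries and wild types 1 to 6 listed 5312 to 5807 genes at 0. The Six2-Cre libraries and wild types 7 to 9 listed 7590 to 7891 genes at 0. The smallest steps between values corresponded to 28200000 to 37200000 reads in the first set and 5370000 to 5890000 in the second, so a transcript of 1 kilobase gained 0.0269 to 0.0355 FPKM per read in the first and 0.170 to 0.186 in the second. Among the wild types alone, 65.7% of all genes differed between the sets, and so did 32 of the 44 endothelial genes (8 higher and 24 lower in the second set). Comparisons therefore stayed inside a set, Foxd1-Cre against wild types 1 to 6 and Six2-Cre against wild types 7 to 9. An FPKM per gene cannot show whether an exon was deleted, so Ctnnb1 itself checks nothing about the labels here. Axin2, a gene that beta-catenin switches on, differed from wild type by 2.63 ± 0.06 log2 units in Foxd1-Cre and by 1.42 ± 0.09 in Six2-Cre kidneys (limma, adjusted p = 2.6e-10 and 0.00066). Changes are given as log2 differences of FPKM + 1 ± SE from limma, which understate the change of genes with low values. A gene is said to rise or fall where its adjusted p over all genes was under 0.05.

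All 44 genes were detected in every library. Per length, Ramp2 stood highest in wild types 1 to 6, at 131 ± 8.88 FPKM (SD, n = 6), followed by Nr2f2 (89.7 ± 6.21), Ephb4 (59.3 ± 6.44) and Egfl7 (40.7 ± 4.58). Lyve1 was lowest, at 0.533 ± 0.160 FPKM, below Vwf at 1.35 ± 0.735. Nr2f2 stood above Ramp2 in wild types 7 to 9, at 170 ± 9.58 against 86.0 ± 8.01 FPKM. The defining genes Pecam1, Cdh5 and Kdr lay at 26.2 ± 2.66, 26.4 ± 4.26 and 15.4 ± 2.30 FPKM in wild types 1 to 6. They were detected in every library, so endothelial RNA was present in every group. Of the 44 genes, 12 overlap another annotated gene that has a row in the table (Egfl7, Eng, Plvap, Ramp2, Cd34, Nrp1, Dll4, Gja5, Ephb4, Nr2f2, Esm1 and Ecscr), and since counting by strand is not given in the sources used here, their values are less certain.

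Most of the 44 endothelial genes rose in Six2-Cre kidneys, and a smaller number did in Foxd1-Cre kidneys. In Six2-Cre kidneys 32 of the 44 rose (72.7%), 1 fell and 11 did not pass, where 7.93% of 13828 genes rose and 5.84% fell (13.8% in either direction). Their median change was 0.68, against -0.0085 over all genes. In Foxd1-Cre kidneys 10 of the 44 rose (22.7%), none fell by limma (1, Fli1, at an unadjusted p under 0.05) and 34 did not pass, where 8.45% of 13996 genes rose and 4.82% fell (13.3% in either direction). Their median change was 0.20, against -0.0079 over all genes, and 35 of the 44 lay above 0. In both mutants 8 genes rose (Aplnr, Emcn, Flt1, Icam2, Nrp2, Pecam1, S1pr1 and Sox18), 24 rose in Six2-Cre without passing in Foxd1-Cre, 2 did the opposite (Dll4 and Efnb2), and 9 passed in neither. In whole-kidney RNA, more cells of a type and more RNA of a gene per cell cannot be told apart. The Foxd1-Cre count fell to 6 without any one of Foxd1-Cre replicates 2 to 5 or wild types 1, 3 or 6, and was 15 without Foxd1-Cre replicate 1, which held the lowest pan-endothelial level of its group.

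**Figure D1:**
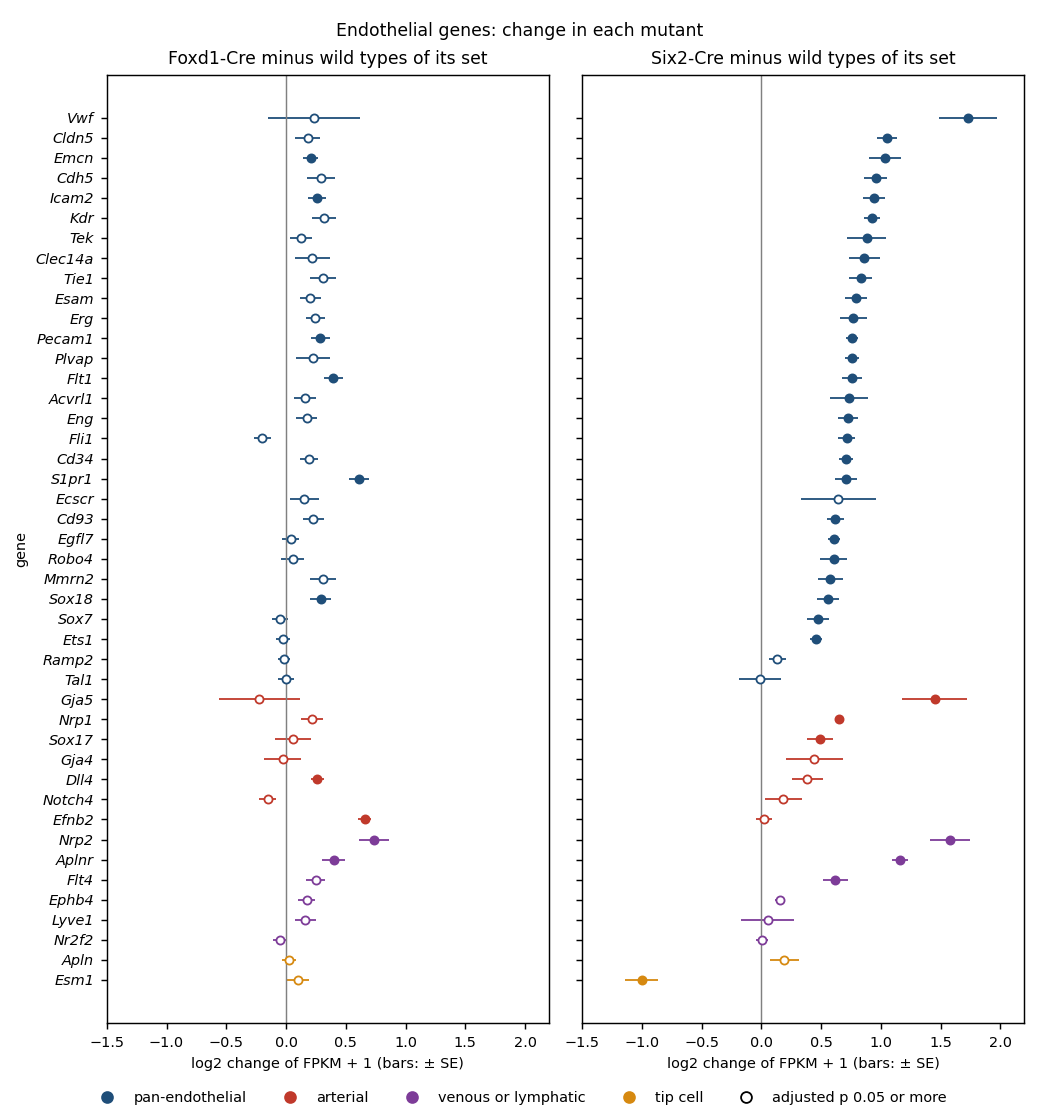
Change of each endothelial gene (rows, grouped by class and ordered by the Six2-Cre change) as the log2 difference of FPKM + 1 from wild types 1 to 6 (Foxd1-Cre) or 7 to 9 (Six2-Cre), with bars for ± SE; filled points passed at an adjusted p under 0.05. In Six2-Cre kidneys 32 points lie filled to the right of 0 and Esm1 alone lies filled to the left, whereas in Foxd1-Cre kidneys 10 are filled and all of them lie to the right.

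Every one of the 9 pan-endothelial receptors rose in Six2-Cre kidneys, where 7.93% of all genes rose. Their changes ran from 0.60 for Robo4 to 0.92 for Kdr, with a median of 0.73, and in each of the 9 every Six2-Cre library lay above every wild type, as it did for 18% of all genes. Kdr, the main signalling receptor for VEGF, was at 30.4, 27.0 and 27.8 FPKM in Six2-Cre and at 14.7, 13.5 and 15.3 in wild types 7 to 9. The 2 groups were far apart, and the mean was 1.96-fold higher (log2 change 0.92 ± 0.07, adjusted p = 0.0013). In Foxd1-Cre kidneys Kdr was at 16.9, 20.6, 20.4, 20.3 and 18.2 FPKM, against 10.8 to 17.1 with a median of 16.1 in wild types 1 to 6. Those groups overlapped through Foxd1-Cre replicate 1, and the change of 0.32 ± 0.10 did not pass (adjusted p = 0.070), though it did without wild type 5, the lowest library (0.23, adjusted p = 0.021).

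S1pr1, the receptor for the blood lipid sphingosine 1-phosphate, had the smallest difference between the mutants' changes among the 9 pan-endothelial receptors. It was at 6.46, 7.20, 8.47, 9.11 and 7.78 FPKM in Foxd1-Cre and at 4.01 to 5.29, median 4.84, in wild types 1 to 6. No library of one group reached the other, as in 6.89% of all genes in that direction, and the change was 0.61 ± 0.08 (adjusted p = 0.00037). In Six2-Cre kidneys it was at 6.68, 6.84 and 6.02 FPKM against 3.29, 3.56 and 3.94, again without overlap, a change of 0.71 ± 0.09 (adjusted p = 0.0061). The Six2-Cre change exceeded the Foxd1-Cre change by 0.10 ± 0.12 (95% interval -0.16 to 0.36, adjusted p = 0.69). Flt1, the VEGF receptor that also acts as a trap for the ligand, rose in both mutants too, by 0.40 ± 0.08 and 0.76 ± 0.09 (adjusted p = 0.0045 and 0.0039). Tek and Tie1, the angiopoietin receptor and its partner, changed by 0.88 ± 0.16 and 0.83 ± 0.10 in Six2-Cre kidneys (adjusted p = 0.019 and 0.0042), and by 0.12 ± 0.09 and 0.31 ± 0.11, neither passing, in Foxd1-Cre kidneys (adjusted p = 0.45 and 0.089). Tek lost its call without any one Six2-Cre library or wild type 7 (adjusted p up to 0.070), and Robo4 lost its own without Six2-Cre replicate 3 or wild type 8 or 9 (up to 0.063). Acvrl1, a receptor for bone morphogenetic proteins, lost its call without any one library of the second set other than Six2-Cre replicate 1 (adjusted p up to 0.097).

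Of 11 genes for junctions and surface proteins, 9 rose in Six2-Cre kidneys, where 7.93% of all genes rose. In Foxd1-Cre kidneys 3 rose (Pecam1, Emcn and Icam2), where 8.45% of all genes rose. Pecam1, the adhesion molecule CD31, was at 32.2, 31.0 and 33.2 FPKM in Six2-Cre and at 19.2, 17.7 and 18.9 in its wild types, a change of 0.76 ± 0.05 (adjusted p = 0.0010). In Foxd1-Cre it was at 27.7, 32.3, 35.5, 34.9 and 30.7 FPKM, against 22.7 to 29.5 with a median of 26.0. The groups overlapped through replicate 1, and the change of 0.29 ± 0.08 (adjusted p = 0.034) lost its call without any one of 8 of the 11 libraries (adjusted p up to 0.091). Icam2 and Emcn in Foxd1-Cre, at 0.26 ± 0.08 and 0.21 ± 0.06, were near the threshold as well (adjusted p = 0.049 and 0.044) and lost their calls without most single libraries (up to 0.13 and 0.10).

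Cldn5, which seals the tight junctions between endothelial cells, had the largest rise of this group. It was at 21.7, 21.2 and 21.2 FPKM in Six2-Cre kidneys and at 9.16, 9.20 and 11.1 in wild types 7 to 9, a 2.174-fold difference of means (1.05 ± 0.08, adjusted p = 0.0014). The Foxd1-Cre libraries, at 19.8, 26.4, 27.1, 25.5 and 24.5 FPKM, lay among wild types 1 to 6 at 17.6 to 26.7 (median 21.2), and the change of 0.18 ± 0.10 did not pass (adjusted p = 0.32). Plvap, which forms the diaphragms of fenestrated capillaries, was at 30.8, 27.7 and 30.4 FPKM in Six2-Cre against 17.2, 17.4 and 16.8, a change of 0.76 ± 0.06 (adjusted p = 0.0013). In the first set Plvap spread widely among the wild types, from 23.3 to 42.0 FPKM, and the Foxd1-Cre values of 29.1, 38.6, 39.6, 40.3 and 35.3 lay inside that range (0.23 ± 0.14, adjusted p = 0.36). Cdh5, the cadherin that holds endothelial cells together, changed by 0.95 ± 0.10 in Six2-Cre (adjusted p = 0.0028) and by 0.29 ± 0.12 in Foxd1-Cre (adjusted p = 0.15). Ramp2, a partner of the adrenomedullin receptor and the most abundant pan-endothelial member, did not pass in either mutant (0.13 ± 0.07 and -0.02 ± 0.05, adjusted p = 0.29 and 0.86).

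All 3 secreted or matrix genes rose in Six2-Cre kidneys, where 7.93% of all genes rose, and none of the 3 passed in Foxd1-Cre kidneys. Mmrn2, an endothelial matrix protein, changed by 0.58 ± 0.10 in Six2-Cre (adjusted p = 0.018) and lost its call without any one of Six2-Cre replicates 2 and 3 or wild types 7 and 8 (adjusted p up to 0.062). Egfl7, a secreted factor of the vessel wall, was at 37.4, 36.5 and 36.2 FPKM in Six2-Cre against 22.8, 23.3 and 25.1 (0.61 ± 0.05, adjusted p = 0.0017). In Foxd1-Cre it was at 37.7, 42.1, 42.2, 43.5 and 42.9 FPKM, against 34.5 to 47.5 with a median of 40.9. Those libraries were within the wild-type range (0.04 ± 0.07, 95% interval -0.12 to 0.20, adjusted p = 0.79). Vwf, the clotting factor stored by endothelium and megakaryocytes, had the largest rise of the 44 in Six2-Cre, at 3.58, 3.78 and 6.09 FPKM against 0.348, 0.482 and 1.13. Each wild-type value rests on 18 to 54 reads and each Six2-Cre value on 170 to 317, and the mean was 6.86-fold higher (1.73 ± 0.24, adjusted p = 0.0080). In the first set Vwf varied widely within each group, at 0.333, 0.955, 5.85, 2.25 and 1.17 FPKM in Foxd1-Cre and 0.244 to 2.12 (median 1.44) in wild types, and its change of 0.23 ± 0.39 did not pass (adjusted p = 0.76).

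**Figure D2:**
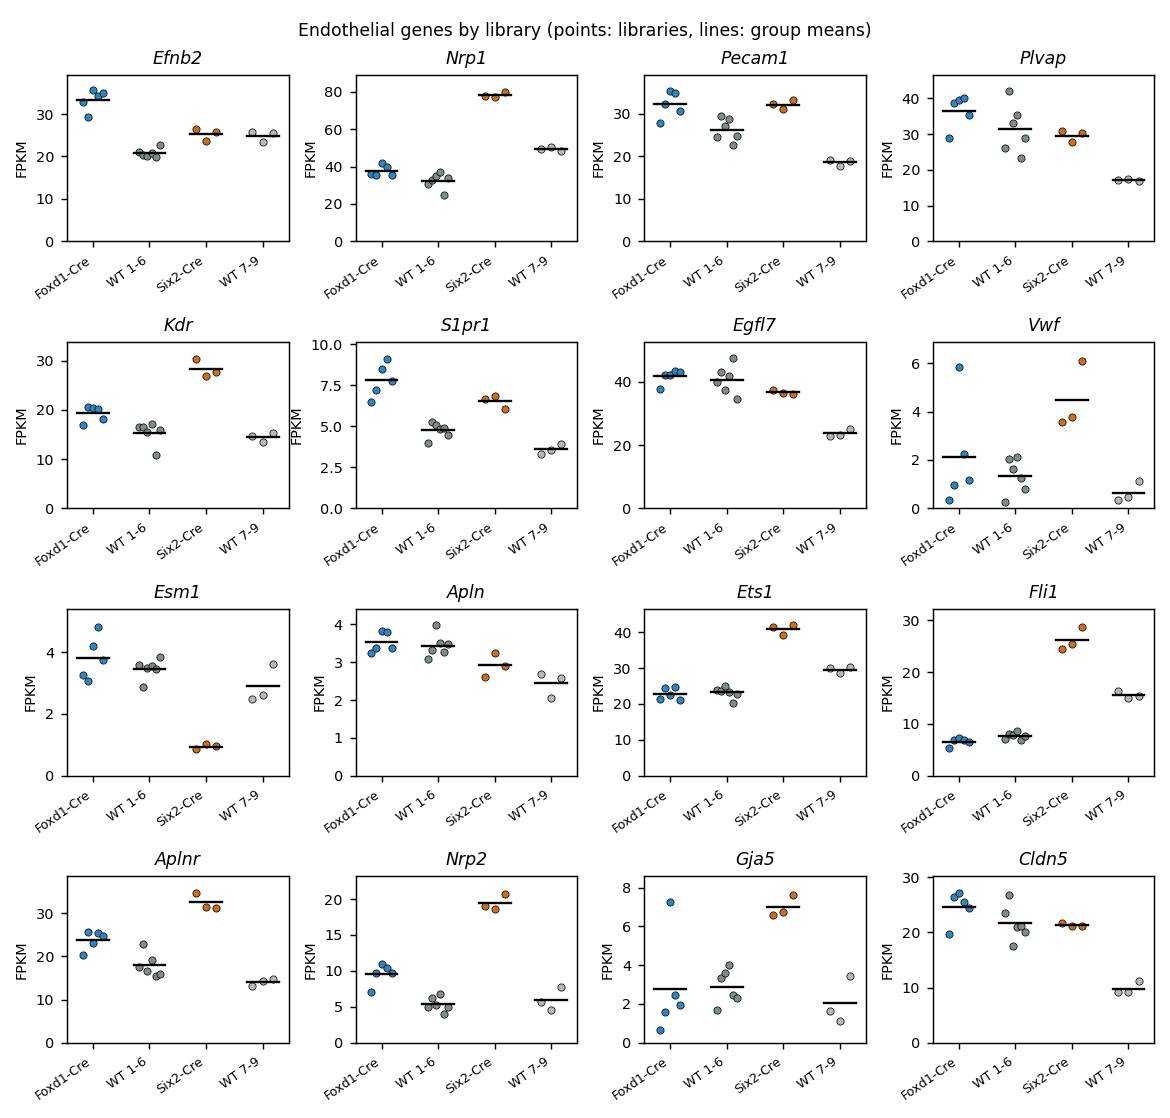
FPKM of 16 endothelial genes in each library (points) with the group mean (line), each panel with its own axis from 0; Foxd1-Cre stands beside wild types 1 to 6 and Six2-Cre beside wild types 7 to 9. Nrp2 and S1pr1 are above wild type without overlap in both mutants, Efnb2 is so in Foxd1-Cre and interleaved with wild type in Six2-Cre, and Esm1 is below wild type in Six2-Cre.

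Of 6 transcription factor genes of the pan-endothelial class, 5 rose in Six2-Cre kidneys, where 7.93% of all genes rose. In Foxd1-Cre kidneys 1 rose, Sox18, where 8.45% of all genes rose, and a count of 1 says little. Fli1 and Ets1 are neighbouring ETS genes on chromosome 9 (GRCm38, chr9:32422204-32542861 and chr9:32636221-32757820). Fli1 was at 24.5, 25.4 and 28.7 FPKM in Six2-Cre against 16.3, 14.9 and 15.4 (0.71 ± 0.07, adjusted p = 0.0031). In Foxd1-Cre it was at 5.401, 6.79, 7.28, 6.80 and 6.58 FPKM, against 6.91 to 8.59 with a median of 7.71, a change of -0.20 ± 0.07 that did not pass (adjusted p = 0.090). The wild-type levels themselves differed by library set, at 7.69 ± 0.62 and 15.6 ± 0.71 FPKM. Ets1 was at 41.5, 39.4 and 42.0 FPKM in Six2-Cre against 29.9, 28.6 and 30.2 (0.46 ± 0.05, adjusted p = 0.0031), and at 21.2, 24.6, 22.5, 24.7 and 21.0 in Foxd1-Cre, inside the wild-type range of 20.4 to 24.97, median 23.5 (-0.02 ± 0.06, adjusted p = 0.84). Erg, the ETS gene most restricted to endothelium, changed by 0.77 ± 0.11 in Six2-Cre (adjusted p = 0.0094). Sox18 and Sox7 changed there by 0.56 ± 0.09 and 0.48 ± 0.09 (adjusted p = 0.013 and 0.023), each losing its call without Six2-Cre replicate 3 (adjusted p = 0.055 and 0.085), and Sox7 also without any one of Six2-Cre replicates 1 and 2 or wild types 7 and 8. In Foxd1-Cre kidneys Sox18 changed by 0.29 ± 0.09 (adjusted p = 0.0485), and it lost that call without any one of 8 of the 11 libraries (adjusted p up to 0.12) and under 5 processing alternatives (0.051 to 0.069). Tal1, a factor shared by endothelium and blood cells, showed no change that passed in either mutant (-0.01 ± 0.17 and -0.00 ± 0.07, adjusted p = 0.97 and 0.99).

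Since these factors bind short core motifs, RefSeq promoter windows of 300 bases (250 before and 50 after a start site, GRCm38.p6) were searched on both strands for 4 cores. A window was found for 25 of the 44 genes. The ETS family core, spelled CAGGAAG, was in 8 of their 30 windows (26.7%), from 7 genes, where 13.3% of all 32851 windows held it. The SOX family core, spelled AACAAT, was in 10% of their windows against 10.7% of all. The GATA family core, spelled AGATAA, was in 10% of their windows against 11.2% of all. The core of forkhead factors, spelled GTAAACA, was in 0 of the 30 windows and in 3.65% of all. Every ETS match is printed below, chosen after the matches were seen, to show what the searched letters stand in. Each runs 5′ to 3′ on the strand of the gene, with the motif or its reverse complement in capitals.
Apln (chrX:48034950-48034976): ccctctccctCTTCCTGcctctcttcc
Cd34 (chr1:194938669-194938695): tacacagtggCTTCCTGccacacttaa
Egfl7 (chr2:26580983-26581009): gggagacaaaCAGGAAGgccatctctc
Egfl7 (chr2:26581024-26581050): ctggtctttcCTTCCTGaggtgcagct
Egfl7 (chr2:26583774-26583800): agaacacacaCAGGAAGtccggcggga
Emcn (chr3:137340894-137340920): agaagggtctCTTCCTGttcaaatccc
Erg (chr16:95459372-95459398): atagaaacctCTTCCTGccattggctg
Notch4 (chr17:34564045-34564066): ctgccCTTCCTGggtcacagta
Robo4 (chr9:37401912-37401938): gagggccaggCAGGAAGcatccgtttc
Apln and Erg lie on the minus strand and the others on the plus strand. The Robo4 stretch lies in an annotated exon, and the others lie outside annotated exons. Egfl7 held 3 matches over 2 start sites, 2 of them 90 and 49 bases before the same start. No 2 matches overlapped. Emcn, Erg and Tek held the SOX core:
Emcn (chr3:137341018-137341043): aaggggctgaAACAATaaatctcctc
Erg (chr16:95459453-95459478): gaaaaacaacATTGTTttcagggtct
Tek (chr4:94739216-94739241): ggatacccctATTGTTcctgaaaatg
The 7 genes with an ETS match did not act alike in the RNA. Cd34, Egfl7, Emcn, Erg and Robo4 rose in Six2-Cre kidneys, while Apln and Notch4 did not pass (adjusted p = 0.35 and 0.49). Cldn5, which rose most among the junction genes, held none of the 4 motifs in its window, and its 250 bases before the start site (chr16:18776597-18776846, plus strand) are shown for comparison.
Cldn5: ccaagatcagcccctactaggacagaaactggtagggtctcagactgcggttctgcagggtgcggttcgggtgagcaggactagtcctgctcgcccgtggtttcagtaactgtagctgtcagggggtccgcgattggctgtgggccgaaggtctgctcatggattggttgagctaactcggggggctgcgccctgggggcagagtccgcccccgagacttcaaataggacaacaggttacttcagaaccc
A match is a description of these letters and not a site of binding, and binding was not measured.

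Of 7 arterial genes 3 rose in Six2-Cre kidneys (Nrp1, Gja5 and Sox17), with a median of 0.44 over the 7. Beside them, 26 of 29 pan-endothelial genes rose there (median 0.73). In Foxd1-Cre kidneys 2 arterial genes rose (Efnb2 and Dll4), with a median of 0.057 over the 7. The share of all genes that rose was 7.93% in Six2-Cre and 8.45% in Foxd1-Cre. The difference between the classes was not tested. Efnb2, the arterial ephrin, had the smallest adjusted p of the 44 in Foxd1-Cre kidneys. It was at 32.9, 29.3, 35.6, 34.2 and 35.1 FPKM there and at 19.9 to 22.8, median 20.5, in wild types 1 to 6. The groups were well apart (1.61-fold, 0.66 ± 0.05, adjusted p = 4.9e-06). In Six2-Cre kidneys it was at 26.4, 23.6 and 25.7 FPKM and in wild types 7 to 9 at 25.8, 23.3 and 25.5, interleaved values with a change of 0.02 ± 0.07 (95% interval -0.14 to 0.18, adjusted p = 0.88). The Six2-Cre change of Efnb2 was lower than its Foxd1-Cre change (-0.64 ± 0.08, adjusted p = 0.00019).

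Nrp1, a co-receptor for VEGF and semaphorins, went the other way. Six2-Cre libraries were at 77.5, 77.2 and 79.9 FPKM against 49.4, 50.7 and 48.3, a change of 0.65 ± 0.04 (adjusted p = 0.00061). In Foxd1-Cre it was at 35.8, 35.2, 41.9, 39.6 and 35.4 FPKM, against 24.6 to 37.2 with a median of 33.3, a change of 0.22 ± 0.09 that did not pass (adjusted p = 0.17). Gja5, the arterial gap junction protein connexin 40, was at 6.57, 6.74 and 7.61 FPKM in Six2-Cre against 1.65, 1.09 and 3.46 (3.37-fold, 1.45 ± 0.27, adjusted p = 0.020). That call was lost without any one Six2-Cre library or wild type 7 (adjusted p up to 0.074). Foxd1-Cre libraries held 0.650, 1.60, 7.27, 2.48 and 1.94 FPKM of Gja5, with replicate 3 alone above the wild types at 1.67 to 3.99 (median 2.90), and the change of -0.23 ± 0.34 did not pass (adjusted p = 0.74). The same replicate was the highest for Vwf. Dll4, the Notch ligand of arteries and tip cells, rose in Foxd1-Cre by 0.26 ± 0.06 (adjusted p = 0.0079) and changed by 0.38 ± 0.13 in Six2-Cre without passing (adjusted p = 0.11). Notch4, its receptor, and Gja4, connexin 37, did not pass in either mutant, and Sox17 rose in Six2-Cre by 0.49 ± 0.11 (adjusted p = 0.033). Sox17 lost that call without any one library of its set other than wild type 7 (adjusted p up to 0.11), with no filter on low values (0.055), after quantile normalization (0.059) and with all 9 wild types (0.22).

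Of 6 venous or lymphatic genes, Nrp2 and Aplnr rose in both mutants, Flt4 rose in Six2-Cre, and Ephb4, Nr2f2 and Lyve1 passed in neither. Among all genes 7.93% rose in Six2-Cre and 8.45% in Foxd1-Cre. Nrp2, a co-receptor for VEGF-C, was at 19.0, 18.6 and 20.7 FPKM in Six2-Cre against 5.62, 4.51 and 7.75, a 3.26-fold difference (1.58 ± 0.17, adjusted p = 0.0032). In Foxd1-Cre it was at 6.99, 9.73, 11.02, 10.4 and 9.67 FPKM, against 4.03 to 6.72, with a median of 5.10. Here too every mutant library lay above every wild type (0.74 ± 0.12, adjusted p = 0.0018), and this was the largest change of the 44 in Foxd1-Cre. Aplnr, the apelin receptor of veins and sprouting vessels, was at 34.7, 31.6 and 31.3 FPKM in Six2-Cre against 13.1, 14.3 and 14.7 (1.16 ± 0.07, adjusted p = 0.00061). It was at 20.3, 25.6, 23.1, 25.4 and 24.9 FPKM in Foxd1-Cre, against 15.4 to 23.0 with a median of 17.1, overlapping through wild type 2 (0.40 ± 0.10, adjusted p = 0.018). Flt4, the VEGF-C receptor of lymphatic endothelium, rose in Six2-Cre by 0.62 ± 0.10 (adjusted p = 0.014; up to 0.0525 without single libraries).

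Nr2f2 had the narrowest interval around 0 in this class. It changed by 0.01 ± 0.05 in Six2-Cre (95% interval -0.12 to 0.13, adjusted p = 0.96) and by -0.05 ± 0.06 in Foxd1-Cre (-0.18 to 0.07, adjusted p = 0.64). Ephb4 was at 62.1, 64.8 and 62.5 FPKM in Six2-Cre against 57.9, 55.4 and 56.7, without overlap but with a small change of 0.15 ± 0.04 just outside the threshold (adjusted p = 0.052). It passed when libraries were rescaled to the same sum (0.19, adjusted p = 0.022) or quantile normalized (0.17, adjusted p = 0.029). Lyve1, a hyaluronan receptor of lymphatic vessels and some macrophages, was at 1.32, 1.29 and 1.18 FPKM in Six2-Cre, within the wild-type values of 2.01, 1.07 and 0.666, which rest on 10 to 34 reads each.

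Of the 2 tip cell genes, Esm1 fell in Six2-Cre kidneys and Apln passed in neither mutant. Esm1, a secreted proteoglycan that VEGF induces in tip cells, was the only one of the 44 that fell. It was at 0.849, 1.01 and 0.943 FPKM in Six2-Cre and at 2.48, 2.63 and 3.60 in wild types 7 to 9. Every mutant library lay below every wild type, as for 17.7% of all genes, and the mean was 0.322 of the wild-type mean (-1.003 ± 0.14, adjusted p = 0.0077). These values correspond to only 10 to 12 reads per Six2-Cre library and 31 to 41 per wild type, and the call held without any one library (adjusted p = 0.016 to 0.033). In Foxd1-Cre kidneys Esm1 was at 3.27, 3.06, 4.20, 4.81 and 3.75 FPKM, against 2.88 to 3.85 with a median of 3.52, and did not pass (0.10 ± 0.09, adjusted p = 0.57). Apln, the ligand of Aplnr, was at 2.61, 3.26 and 2.90 FPKM in Six2-Cre against 2.68, 2.05 and 2.59 (0.19 ± 0.12, adjusted p = 0.35). It was at 3.24, 3.38, 3.83, 3.80 and 3.38 FPKM in Foxd1-Cre, inside the wild-type range of 3.10 to 3.99, median 3.40 (0.03 ± 0.06, adjusted p = 0.82).

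Averages over a class (mean log2(FPKM + 1) of its genes) put the classes side by side. The pan-endothelial average was 4.03 ± 0.05 (SD, n = 3) in Six2-Cre against 3.30 ± 0.09 (n = 3), and 3.83 ± 0.16 (n = 5) in Foxd1-Cre against 3.64 ± 0.12 (n = 6). The arterial average minus the pan-endothelial average ran from -0.46 to -0.37 in Six2-Cre and from -0.25 to -0.13 in its wild types. The arterial average thus stood lower relative to the pan-endothelial one in all 3 mutant libraries. The venous average minus the pan-endothelial average behaved likewise, at 0.44 to 0.55 against 0.58 to 0.69. Among single genes, all mutant libraries lay below all wild types of that set in 17.7%. The members of these 2 classes were split. Gja5, Nrp2 and Aplnr rose by 1.45, 1.58 and 1.16, above the pan-endothelial median of 0.73. Efnb2, Notch4, Ephb4 and Nr2f2 changed by only 0.02, 0.18, 0.15 and 0.01. Nr2f2 is also made by stroma and Efnb2 by developing epithelia, so these class averages do not measure endothelium alone. In Foxd1-Cre kidneys the arterial offset overlapped with wild type (-0.65 to -0.31 against -0.54 to -0.40), and so did the venous one (0.12 to 0.29 against 0.05 to 0.23). Summed over the 44 genes, the level was 1023 to 1067 FPKM in Six2-Cre against 729 to 749, and 774 to 963 in Foxd1-Cre against 723 to 891. The members were chosen by class with earlier results in view, so these averages carry no test.

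**Figure D3:**
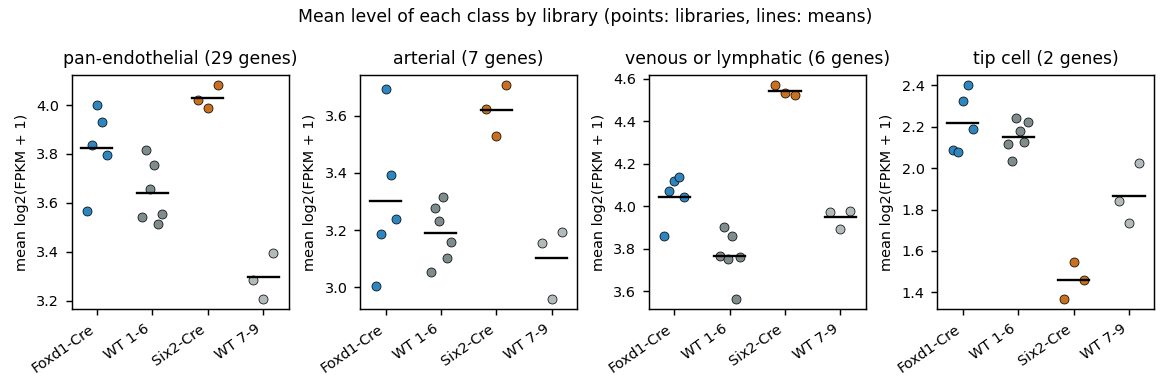
Mean log2(FPKM + 1) over the genes of each class in every library (points) with the group mean (line); axes differ between panels and do not start at 0. Six2-Cre libraries lie above wild types 7 to 9 in the pan-endothelial, arterial and venous or lymphatic panels and below them in the tip cell panel.

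The change in Six2-Cre exceeded the change in Foxd1-Cre for 39 of the 44 genes. Tested gene by gene, the difference passed for 25 members in that direction and for 2 in the opposite one (Efnb2 and Esm1), where 5.24% and 5.76% of 13810 genes passed (11.0% in either direction). The median difference was 0.50, against -0.013 over all genes. Pan-endothelial genes made up 21 of the 25, with Nrp1 and Gja5 from the arterial class and Nrp2 and Aplnr from the venous class. Apart from Gja5 (1.68 ± 0.43, adjusted p = 0.018) and Vwf (1.496 ± 0.46, adjusted p = 0.043), which varied most between libraries, the largest differences were Fli1 at 0.91 ± 0.10 and Cldn5 at 0.87 ± 0.13 (adjusted p = 1.9e-05 and 0.00025). Egfl7 (0.57 ± 0.09), Ets1 (0.48 ± 0.08) and Aplnr (0.76 ± 0.12) also differed with an adjusted p of 0.00033 or less. Leaving out Six2-Cre replicate 3 reduced the 25 to 15, Nrp2 lost its call without any one Six2-Cre library or wild type 7 (adjusted p up to 0.077), and Vwf lost its call without most single libraries (adjusted p up to 0.097). Across the 44 genes the changes in the mutants had a Pearson correlation of 0.28 and a Spearman correlation of 0.42, given as a description, since genes of one library are not independent and each mutant rests on its own set of libraries. With all 9 wild types set against both mutants, which amounts to comparing mutants across the sets, the difference turned negative for 9 members, among them Cldn5 (-0.19), Egfl7 (-0.18) and Plvap (-0.29). Differences in lineage and in library set cannot be told apart here, as no library of one mutant belongs to the set of the other.

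**Figure D4:**
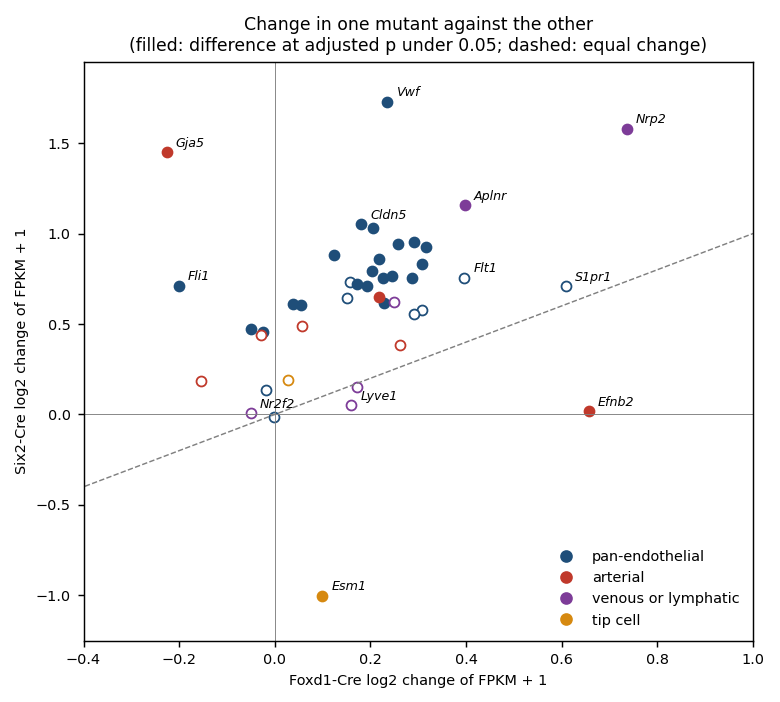
Change in Six2-Cre (vertical) against change in Foxd1-Cre (horizontal), both as log2 differences of FPKM + 1 from wild types 7 to 9 and 1 to 6; points are the 44 genes by class, filled where the difference between the changes passed, and the dashed line marks equal change. Most points lie above the line, with Efnb2 and Esm1 filled below it.

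A further list held 30 genes taken as endothelial, not all of them private to vessels, and 29 passed the filter on low values. Of these, 17 rose and 1 fell in Six2-Cre (median 0.57), where 7.93% of all genes rose and 5.84% fell. In Foxd1-Cre 8 rose and none fell (median 0.18), where 8.45% of all genes rose and 4.82% fell. There 1 gene was lower at an unadjusted p under 0.05. Slc2a1 (0.43 ± 0.10) and Sox11 (0.19 ± 0.05) were among the 8 and passed only in Foxd1-Cre (limma, adjusted p = 0.014 and 0.026). She, an adaptor protein of endothelium, rose in both (0.88 ± 0.12 and 0.36 ± 0.07, adjusted p = 0.0077 and 0.0064). Mmrn1, a matrix protein of lymphatic endothelium and platelets, also rose in both. In Six2-Cre it went from 2.23 ± 0.63 to 6.42 ± 0.30 FPKM (1.22 ± 0.15, limma, adjusted p = 0.0050). In Foxd1-Cre it changed by 0.34 ± 0.09 (adjusted p = 0.036). Pdpn, which marks lymphatic endothelium but also podocytes and other epithelia, was the one that fell in Six2-Cre (-0.59 ± 0.07, limma, adjusted p = 0.0048). Gata2 rose in Foxd1-Cre by 1.25 ± 0.21 (adjusted p = 0.0020) and is made by endothelium, blood and neural cells.

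Markers of other cells were counted as well, and their part in the endothelial values was not tested. Over all genes, 7.93% rose and 5.84% fell in Six2-Cre, and 8.45% rose and 4.82% fell in Foxd1-Cre. In lists this short a count of 1 or 2 genes says little. Of 12 mural genes tested, 10 rose and 1 fell in Six2-Cre. In Foxd1-Cre 5 rose (Acta2, Tagln, Cnn1, Mcam and Angpt1, the last also counted among the vessel signals). The other 7 did not pass there, among them Pdgfrb (0.18 ± 0.10, limma adjusted p = 0.32). Of these, 2 (Cspg4 and Kcnj8) were lower at an unadjusted p under 0.05. Pdgfrb, the pericyte receptor that senses platelet-derived growth factor, went from 19.0 ± 0.88 to 48.5 ± 0.44 FPKM in Six2-Cre (1.31 ± 0.05, adjusted p = 0.00013), and in Foxd1-Cre the smooth muscle gene Cnn1 changed by 1.38 ± 0.16 (adjusted p = 9.4e-05). Acta2, smooth muscle actin, went from 7.75 ± 1.86 to 28.45 ± 10.7 in Foxd1-Cre (1.68 ± 0.27, adjusted p = 0.0012). The summed level of the mural list was 223 to 246 FPKM in Six2-Cre against 126 to 136, and 160.5 to 230 in Foxd1-Cre against 112 to 186. Nephron progenitor genes fell in both, 9 of 11 in Six2-Cre and 6 of 11 in Foxd1-Cre, with a sum of 247 to 261 FPKM against 479 to 543 and of 429 to 485 against 529 to 645. Of 14 stromal genes 8 fell and 2 rose in Foxd1-Cre and 1 fell and 4 rose in Six2-Cre. Of 12 ureteric bud genes 7 fell in Six2-Cre, and 2 rose and 1 fell in Foxd1-Cre. Of 8 neural genes tested 5 rose and 1 fell in Six2-Cre, and 3 rose and 1 fell in Foxd1-Cre. The neural gene that fell in Six2-Cre was Ret, which is also counted among the ureteric bud genes that fell there.

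Among blood cell genes most erythroid ones fell in Six2-Cre, and fewer passed in Foxd1-Cre. Of 9 erythroid genes tested 8 fell and 1 rose in Six2-Cre, where 5.84% of all genes fell. In Foxd1-Cre 3 fell (7 at an unadjusted p under 0.05), where 4.82% of all genes fell, and no globin gene tested passed. Epor rose in Six2-Cre (0.76 ± 0.15, limma adjusted p = 0.024) but fell in Foxd1-Cre (-0.48 ± 0.05, adjusted p = 8.3e-05). The list sum was 4435 to 5620 FPKM against 8867 to 10700 in Six2-Cre, and 3624 to 6405 against 4541 to 8493 in Foxd1-Cre. Rescaling libraries to the same sum without the erythroid genes left 33 members risen in Six2-Cre and 10 in Foxd1-Cre. These genes are a small part of library totals of 799273 to 963729 FPKM, so leaving them out could change that scaling little. Whether red cells bear on the endothelial values was not tested. Of 5 megakaryocyte genes, which share Vwf with endothelium, 1 (Itgb3) rose in Six2-Cre, where 7.93% of all genes rose. A single gene of so short a list says little. The list sum of 11.9 to 15.1 FPKM overlapped the wild types at 11.02 to 13.5. Of 11 macrophage genes, which share Lyve1, 3 rose in Six2-Cre (C1qb, Mrc1 and C1qc, by 0.54 to 0.59), and the sum was 40.9 to 44.3 against 23.6 to 36.9 FPKM. None of the macrophage or megakaryocyte genes passed in Foxd1-Cre by limma (2 of 11 and 0 of 5 at an unadjusted p under 0.05).

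Genes for signals to vessels changed in both mutants. Of 30 such genes, 13 rose and 2 fell in Six2-Cre, where 7.93% of all genes rose and 5.84% fell. In Foxd1-Cre 10 rose and 3 fell, where 8.45% of all genes rose and 4.82% fell. Vegfa, the main VEGF ligand, passed in neither mutant (0.12 ± 0.13 and 0.42 ± 0.16, adjusted p = 0.59 and 0.11), while its receptor genes Kdr and Flt1 rose in Six2-Cre. In Foxd1-Cre kidneys Vegfa was at 66.8 to 82.9 FPKM, against 44.1 to 89.6 with a median of 50.2 (limma, unadjusted p = 0.022). Vegfc and Vegfd, ligands of Flt4, rose in Six2-Cre by 1.22 ± 0.11 and 1.13 ± 0.13 (adjusted p = 0.0018 and 0.0042), with Vegfc at 21.7 ± 0.93 FPKM against 8.81 ± 1.31, and neither passed in Foxd1-Cre. Pgf, placental growth factor, a ligand of Flt1, fell in Six2-Cre from 10.4 ± 0.67 to 4.36 ± 1.33 FPKM (-1.11 ± 0.18, adjusted p = 0.012).

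Angpt1 and Angpt2, the ligands of the Tek receptor, rose in both mutants. Angpt1 changed by 1.06 ± 0.14 in Six2-Cre and 0.83 ± 0.07 in Foxd1-Cre (adjusted p = 0.0066 and 1.2e-05), and Angpt2 by 1.10 ± 0.16 and 0.60 ± 0.15 (adjusted p = 0.0083 and 0.021). Semaphorin genes, whose products bind Nrp1 and Nrp2, rose in Foxd1-Cre for Sema3a (from 3.74 ± 0.93 to 12.25 ± 1.44 FPKM, adjusted p = 7.5e-06) and Sema3c (0.74 ± 0.09, adjusted p = 0.00011), whereas Sema3f fell in both mutants, by 0.16 on the log2 scale in Foxd1-Cre and by 0.47 in Six2-Cre. Cxcl12, the chemokine that acts on Cxcr4, was called in opposite directions. It rose in Six2-Cre from 131.5 ± 24.3 to 246 ± 16.6 FPKM (0.91 ± 0.13, adjusted p = 0.0086) and fell in Foxd1-Cre from 176 ± 27.6 to 102 ± 15.9 (-0.79 ± 0.12, adjusted p = 0.0010). Of the other called ligands, Bmp4 and Tgfb1 rose in both (Bmp4 by 1.74 ± 0.11 and 0.85 ± 0.10, Tgfb1 by 0.99 ± 0.09 and 0.43 ± 0.06). Jag1, a Notch ligand, rose in Six2-Cre (0.42 ± 0.07), Apela, a ligand of Aplnr, and Ccbe1, a cofactor of VEGF-C processing, rose in Foxd1-Cre (0.44 ± 0.13 and 0.46 ± 0.10), and the Notch ligand Dll1 fell in Foxd1-Cre (-0.59 ± 0.08). Hey2, a Notch target of arteries, rose in both (1.47 ± 0.13 and 0.57 ± 0.13, adjusted p = 0.0018 and 0.012), whereas Hey1 and Heyl passed in neither.

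**Figure D5:**
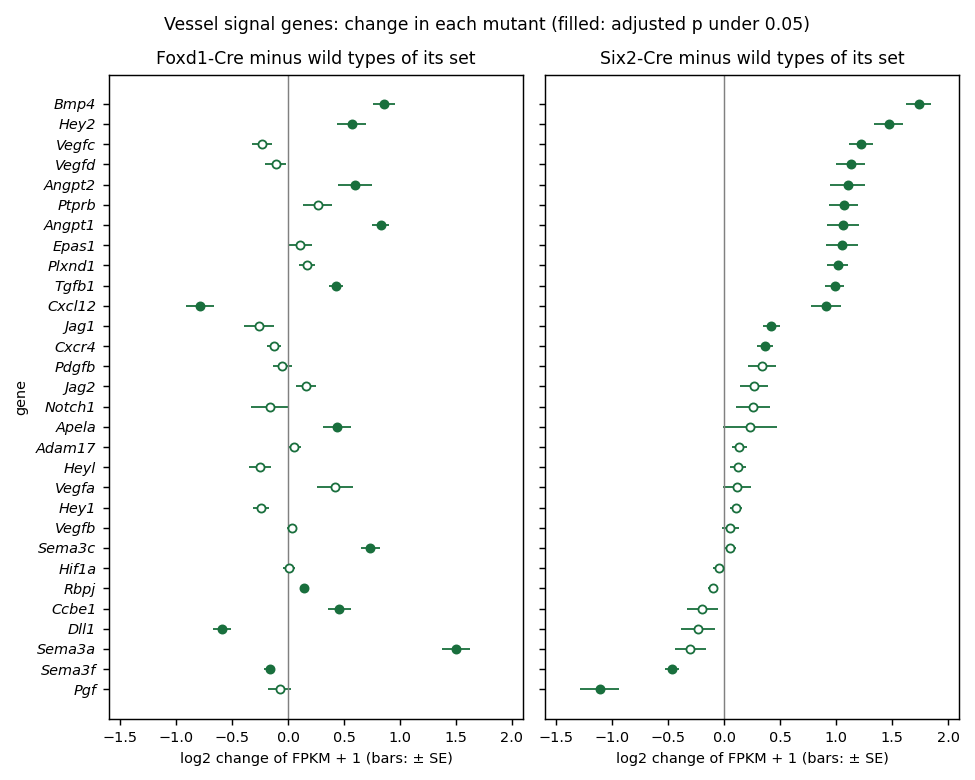
Change of 30 genes for signals that act on vessels, as the log2 difference of FPKM + 1 from wild types 1 to 6 (Foxd1-Cre) or 7 to 9 (Six2-Cre), with bars for ± SE and filled points where the adjusted p was under 0.05; rows are ordered by the Six2-Cre change. Bmp4, Hey2, Angpt1, Angpt2 and Tgfb1 are filled to the right of 0 in both panels, and Cxcl12 is filled on opposite sides.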

How the data were processed

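RNA-seq libraries from 17 samples of whole kidneys were used: 5 Foxd1-Cre, 3 Six2-Cre and 9 wild type. Per the labels' protocols, dissected kidneys went into RNAlater and RNA was purified on RNeasy Micro columns for standard Illumina libraries. Per the submitters' processing notes, bcl2fastq 2.17.1.14, Salmon and GRCm38 were used. The authors deposited 1 table of FPKM values, and the gene-level summary, annotation release, scaling and strand are not given in the sources used here.

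Values were fitted as log2(FPKM + 1) by limma 3.58.1 (R 4.3.3), letting the prior variance follow the mean; two-sided p-values were adjusted by Benjamini-Hochberg across every gene tested. Genes at 1 FPKM or more in at least 3 libraries were kept (14014). Genes at 0 throughout a library set were dropped, leaving 13996 and 13828. The difference is the Six2-Cre change minus the Foxd1-Cre change, its standard error combined from both fits and its degrees of freedom by Satterthwaite (13810 genes). The pairing of wild types with mutants comes from the rule that chose the members. Read numbers behind a value are estimates from the step between FPKM values and the longest annotated transcript, and cover counting error only. Gene symbols and places are from GENCODE M21. The fits were tested on simulated data.

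The members and lists were chosen with earlier results of these data known. Values in every library are given for the 2 genes per class and role with the smallest p and for the largest differences each way. Of other lists, counts are given. Genes named are among the 4 with the smallest p in a comparison or, for vessel signals, called ligands. Vegfa, Ccbe1, Hey1, Heyl, Slc2a1, Sox11 and Ret were named after their values were seen. Alternatives tried were a pseudocount of 0.1, other filters, rescaled sums, quantile normalization, all 9 wild types, no variance trend, a replicate block, and leaving out each library. Replicate numbers shared by Foxd1-Cre and wild-type libraries did not pair them.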

Additional observations from a re-analysis of the deposited data

Results flagged for a closer look

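A single library stood apart in 6 of 88 groups of values examined. The measure was the gap from that library to its nearest neighbour over the range of the group, against Dixon's critical value. That threshold is meant to pass about 1 in 20 groups by chance. The groups were the Foxd1-Cre libraries and their wild types, gene by gene. Six2-Cre libraries and their wild types were not screened this way, so the count says nothing about them. Foxd1-Cre replicate 1 was the lowest of its group for Egfl7 (37.65 FPKM), Clec14a (2.061) and Ecscr (14.94). Without it Clec14a and Ecscr passed in Foxd1-Cre (0.36 and 0.27, limma, adjusted p = 0.038 and 0.041). Wild type 5 was low for Kdr (10.83 FPKM), wild type 2 was high for Tal1 (2.482), and Foxd1-Cre replicate 3 was high for Gja5 (7.269).

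For 27 genes the change differed between the mutants by limma (Six2-Cre minus Foxd1-Cre, log2). Receptors were Kdr 0.61, Tek 0.76, Tie1 0.52, Eng 0.55, Robo4 0.55 and Cd93 0.39. Junction and surface genes were Cldn5 0.87, Emcn 0.83, Icam2 0.68, Cdh5 0.66, Clec14a 0.64, Esam 0.59, Plvap 0.53, Cd34 0.52 and Pecam1 0.47. Secreted and transcription factor genes were Vwf 1.496, Egfl7 0.57, Fli1 0.91, Sox7 0.53, Erg 0.52 and Ets1 0.48. Arterial, venous and tip cell genes were Gja5 1.68, Nrp1 0.43, Efnb2 -0.64, Nrp2 0.84, Aplnr 0.76 and Esm1 -1.10. Cd93 and Clec14a lost this call without most single libraries (adjusted p up to 0.094 and 0.12), and so did Vwf.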

How the results depend on the processing

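The counts of endothelial genes that rose stayed within 1.5 times of 10 (Foxd1-Cre, 7 to 12) and 32 (Six2-Cre, 22 to 33) under the alternatives other than leaving out a library. A filter at 5 FPKM removed Esm1, leaving 0 fallen in Six2-Cre and 1 lower difference. Setting all 9 wild types against both mutants compares libraries across the sets. It gave a Six2-Cre median of 0.41 and 16 higher differences, and it turned the difference for Tie1 (-0.25), Esam (-0.14), Egfl7 (-0.18), Eng (-0.0307), Plvap (-0.29), Cldn5 (-0.19), Ramp2 (-0.46), Cd34 (-0.0695) and Icam2 (-0.0793); the cause was not tested. Leaving out 1 library at a time gave 6 to 15 risen and 0 fallen in Foxd1-Cre (median 0.15 to 0.25), 24 to 29 risen and 1 fallen in Six2-Cre (median 0.64 to 0.70), and 15 to 26 higher and 2 lower differences. With a replicate block 7 rose and 0 fell in Foxd1-Cre (median 0.17). Same-numbered libraries had deviations correlated at 0.022 to 0.099, and only number 5 correlated best with its own, so the numbers do not pair them. Six2-Cre and its wild types share no number. Over all genes 1182 rose and 674 fell in Foxd1-Cre, against 1231 and 408 with rescaled sums and 1019 and 899 after quantile normalization. Depth limits genes of low value in the second set.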
